A study of Mus musculus with 4 samples.

Results

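Collagen chain genes, the genes that encode the polypeptides from which collagens are assembled, were followed in B16-F10 cells with and without recombinant Cdh1. They were chosen by name alone: every non-control probe whose RefSeq accession belonged to a gene with a chain symbol such as Col1a1. This gave 44 chain genes of 23462 named genes, carried by 70 of 56605 probes and 88 of 59305 spots on each array. Of the chains, 21 had 1 probe and 23 had more. B16-F10 is an established mouse melanoma line, grown here in medium with 10% fetal bovine serum. The control group (2 arrays) was cultured for 24 h with no recombinant protein. The Cdh1 group (2 arrays) received recombinant Cdh1 at 100 ng/mL for the same time; Cdh1 is the mouse gene symbol for E-cadherin, which joins epithelial cells to each other. The cultures came as 2 independent sets, and each set held a control culture beside a Cdh1 culture. Treatment group and set were therefore balanced, and both comparisons rested on 2 arrays against 2. No other treatment is named in the labels.

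Collagens are matrix proteins in which chains wind around each other into a triple helix. Fibrillar collagens give tissues tensile strength, collagen IV forms the network of basement membranes, and fibril-associated collagens sit on the surface of fibrils. Chains are hydroxylated and folded in the endoplasmic reticulum, exported in large carriers, trimmed by proteases and cross-linked outside the cell, where integrins and discoidin domain receptors bind them. In skin, fibrillar collagens come mainly from dermal fibroblasts and collagen IV and VII lie at the border of epidermis and dermis, where melanocytes reside.

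Levels are log2 of the processed intensity of a probe minus the 75th percentile of its array, so that 0 is that percentile. Levels of different probes cannot be set against each other, because probes differ in how well they bind their target. The 75th percentile of intensity was between 568.71 and 623.22, between 59.29% and 61.33% of the spots on an array were well above background, and 0 were saturated. The line carried its labelled identity: all 7 melanocyte markers (Tyr, Tyrp1, Dct, Pmel, Mlana, Mitf, Sox10) were well above background on all 4 arrays. Of 6 fibroblast markers, Dcn, Lum and Thy1 were well above background on no array and Pdgfra and Pdgfrb on all 4. Among markers of other cells, the endothelial genes Cdh5, Kdr and Tek, the leukocyte gene Ptprc and the epithelial gene Epcam were well above background on no array.

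A chain was called detected on an array when the array software placed its probe well above the local background, and the brightest of a gene's probes, by its mean over all arrays, stood for the gene. Of the 44 chains, 19 were detected on all 4 arrays, 10 on 1 to 3 arrays and 15 on none. Over all named genes, 59.7% were detected on all 4 arrays and 33.6% on none. Counts by class of collagen follow, with at most 11 chains in a class, and no difference between classes was tested. All 9 fibril-associated chains were detected on at least 1 array, 5 of them on all 4, while 5 of the 6 collagen VI chains were detected on none. Of 11 fibrillar chains, 5 were detected on all 4 arrays, 2 on some and 4 on none. Collagen IV had 3 of 6 chains on all 4 arrays, the hexagonal network collagens 2 of 3, and collagen VII, the multiplexins, the transmembrane collagens and the group of other collagens 1 chain each. The chains detected on no array were Col2a1, Col3a1, Col5a2 and Col24a1 (fibrillar), Col4a3 and Col4a6 (collagen IV), Col8a2, Col6a2, Col6a3, Col6a4, Col6a5, Col6a6, Col13a1, Col25a1 and Col28a1. A chain that was not well above background has only an upper bound here and was not shown to be absent.

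**Figure D1:**
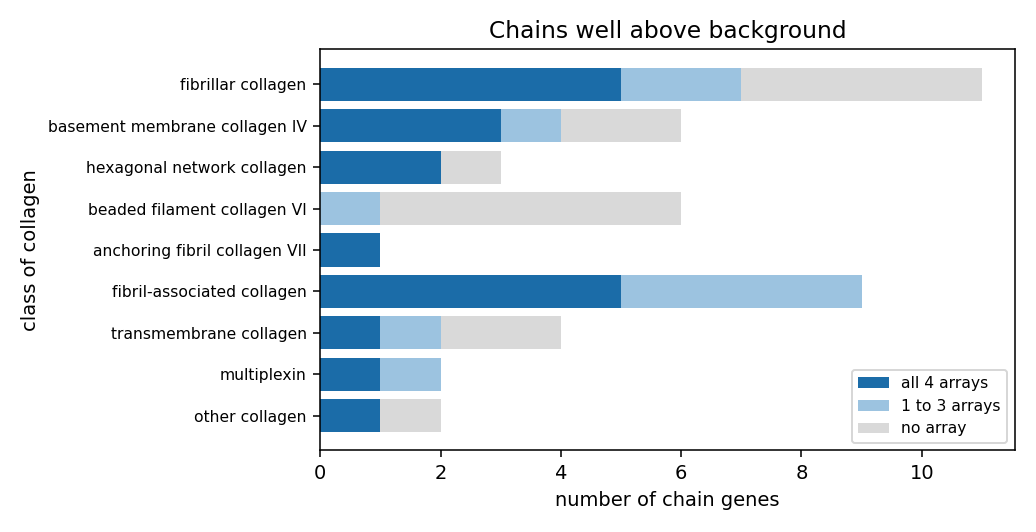
Number of collagen chain genes per class (horizontal axis, count of genes) that were well above background on all 4 arrays, on 1 to 3 arrays or on no array. The 9 fibril-associated chains were all detected on at least 1 array, whereas 5 of 6 collagen VI chains were detected on none.

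Several chains that assemble together were detected together and others were not. Col1a1 and Col1a2, the chains of collagen I, were both detected on all 4 arrays, as were Col4a1 and Col4a2, the chains of the widespread collagen IV network. All 3 chains of collagen IX were also detected on all 4. Col5a1 and Col5a3 were detected without Col5a2, and Col4a5 on all 4 arrays and Col4a4 on 3, without their partner Col4a3. Of collagen VI, Col6a1 was detected on 2 arrays and Col6a2, its neighbour in the genome, on none. Col3a1, which accompanies collagen I in many fibres, was on no array.

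No collagen chain was called higher or lower with recombinant Cdh1. Of the 23 chains tested, 0 passed an adjusted p of 0.05 in limma, and 0 had an unadjusted p under 0.05. Over all 14450 genes tested, 0.0% were called by the adjusted p and 1.1% had an unadjusted p under 0.05. The adjusted p in limma was 1.0 for each of the 23 chains. With the set as a block it was at least 0.707, the lowest being that of Col7a1. The median difference, Cdh1 minus control, was 0.03 on the log2 scale over the chains and -0.01 over all genes tested.

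The size of a change that could have been missed differs between chains. Over the 19 chains detected on all 4 arrays, the difference ran from -0.30 for Col8a1 to 0.18 for Col7a1. The half-width of its 95% confidence interval in limma was 0.38 for Col9a2, 0.65 at the median and 2.84 for Col8a1. This fit counts the spread between sets as error. With the set as a block, the half-width was between 0.19 (Col1a2) and 0.70 (Col9a3), with a median of 0.32. A difference of at least 2-fold in both sets was found for 0 of the 19 chains and for 3 of 13999 genes detected on all 4 arrays. The groups did not overlap for 1 of the 19 chains, Col9a2, against 13.7% of the 13999 genes. Within sets the direction was mixed: of the 23 tested chains, 5 were higher with Cdh1 in both sets, 5 were lower in both and 13 had opposite signs. Over all genes tested, 51.3% had the same sign in both sets, against 43.5% of the chains. Because whole cultures were measured, fewer cells of a kind and less RNA per cell cannot be told apart in any of these values.

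**Figure D2:**
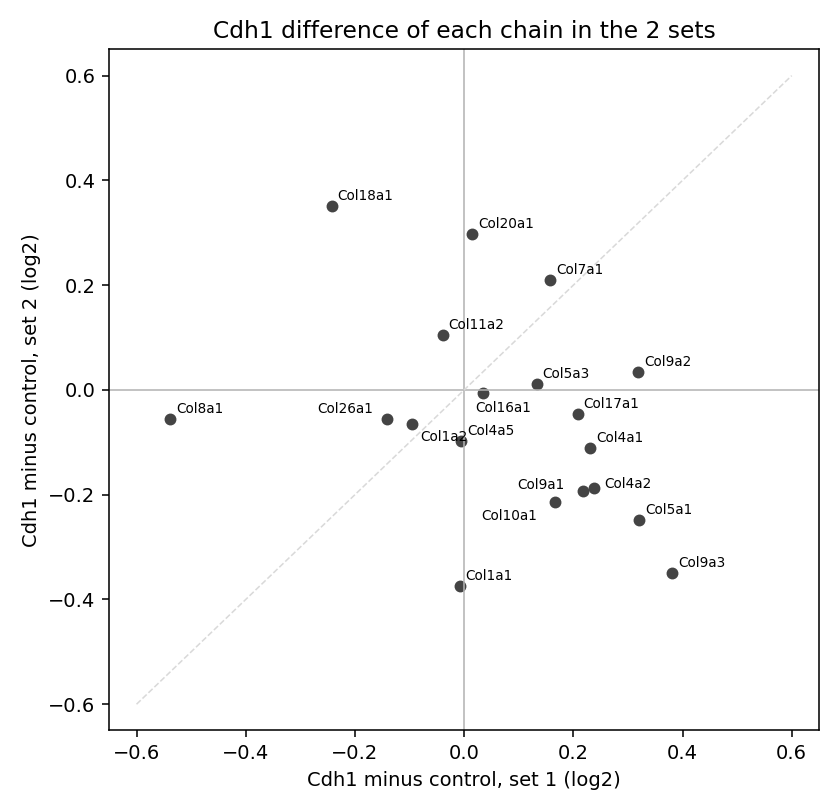
Difference in log2 signal, Cdh1 minus control, in set 1 (horizontal axis) and set 2 (vertical axis) for the 19 collagen chains detected on all 4 arrays. Each point is 1 chain, and the dashed line marks equal differences; 10 of the 19 points lie in the quadrants where the sets had opposite signs.

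The 2 sets, in contrast, differed in many chains. Of the 23 chains tested for set 2 against set 1, 10 passed an adjusted p of 0.05 in limma, 4 higher in set 2 (Col4a2, Col6a1, Col8a1, Col9a1) and 6 lower (Col1a1, Col4a4, Col4a5, Col7a1, Col11a2, Col16a1). Over all 14640 genes tested, 19.0% were called, 7.53% higher and 11.5% lower. Col6a1 and Col4a4 entered the test through the set in which they were high. The 2 arrays of a set are its control and its Cdh1 culture. The p-values between sets, and the SD over the arrays of a set, therefore measure spread within sets and not how independent sets vary. Of the 19 chains detected on all 4 arrays, 8 were called, against 18.3% of genes so detected. With the treatment group as a block, 5 chains remained called, Col1a1, Col4a4, Col6a1, Col7a1 and Col8a1, against 7.98% of all genes. Of the 19 chains detected on all 4 arrays, 3 remained, against 7.03% of such genes. The median absolute difference between sets was 0.37 over the tested chains and 0.17 over all genes tested. The median signed difference, set 2 minus set 1, was -0.11 over the chains and -0.03 over all genes. The direction was the same in control and Cdh1 arrays for 19 of the 23 chains (82.6%, against 80.8% of all genes).

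Of the 19 chains detected on all 4 arrays, 18 differed more between sets than between treatment groups, against 80.6% of all genes so detected. The arrays of the 2 sets did not overlap for 16 of the 19, against 73.0% of those genes. A difference of at least 2-fold in both treatment groups was found for 2 of the 19 chains, Col1a1 and Col8a1, and for 352 of the 13999 genes. These calls rest on all 4 arrays. When either array of set 1 or the Cdh1 array of set 2 was left out, 0 chains were called, and without the control array of set 2 the calls were 2, Col1a1 and Col4a4. With no filter on dim probes, 0 chains and 0 probes were called, and the lowest adjusted p was 0.0743. What set the cultures apart beyond their independence is not given in the labels.

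Marker genes and the position of spots were also compared between sets. Of the 7 melanocyte markers, Tyr (-1.77), Pmel (-0.42) and Mitf (-0.39) were called lower in set 2 in limma, and only Tyr remained so with the block (adjusted p = 0.0368, against 0.0621 for Pmel and 0.0786 for Mitf). The others were not called, at -0.15 for Tyrp1, -0.12 for Dct, -0.21 for Mlana and 0.20 for Sox10. The summed linear level of the 7 melanocyte markers was 1550 and 1520 in set 1 against 1320 and 1320 in set 2. Such a sum is carried by the brightest probes, here Dct, Mlana, Pmel and Tyrp1, and does not measure how many cells of a kind were present. Of the 6 fibroblast markers, 2 were detected on all 4 arrays. The sum over the 6 was 0.203 and 0.207 in set 1 against 0.226 and 0.16 in set 2. It includes Dcn, Lum and Thy1, which were well above background on no array. It also includes Fap, which in set 2 read -3.82 on the control array and -6.13, not well above background, on the Cdh1 array. Pdgfra was called lower in set 2 in limma (-0.41) without the block and not with it (adjusted p = 0.0758). The probes of Col4a4, Col7a1 and Col8a1 lie in the last 24 of 384 rows of spots. Between sets, 15.2% of the tested probes in those rows and 15.5% of the others were called, and 6.59% against 3.7% differed by at least 2-fold. The part of marker genes and of spot position in the chain differences was not tested, and the other 7 chains were called without those rows.

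**Figure D3:**
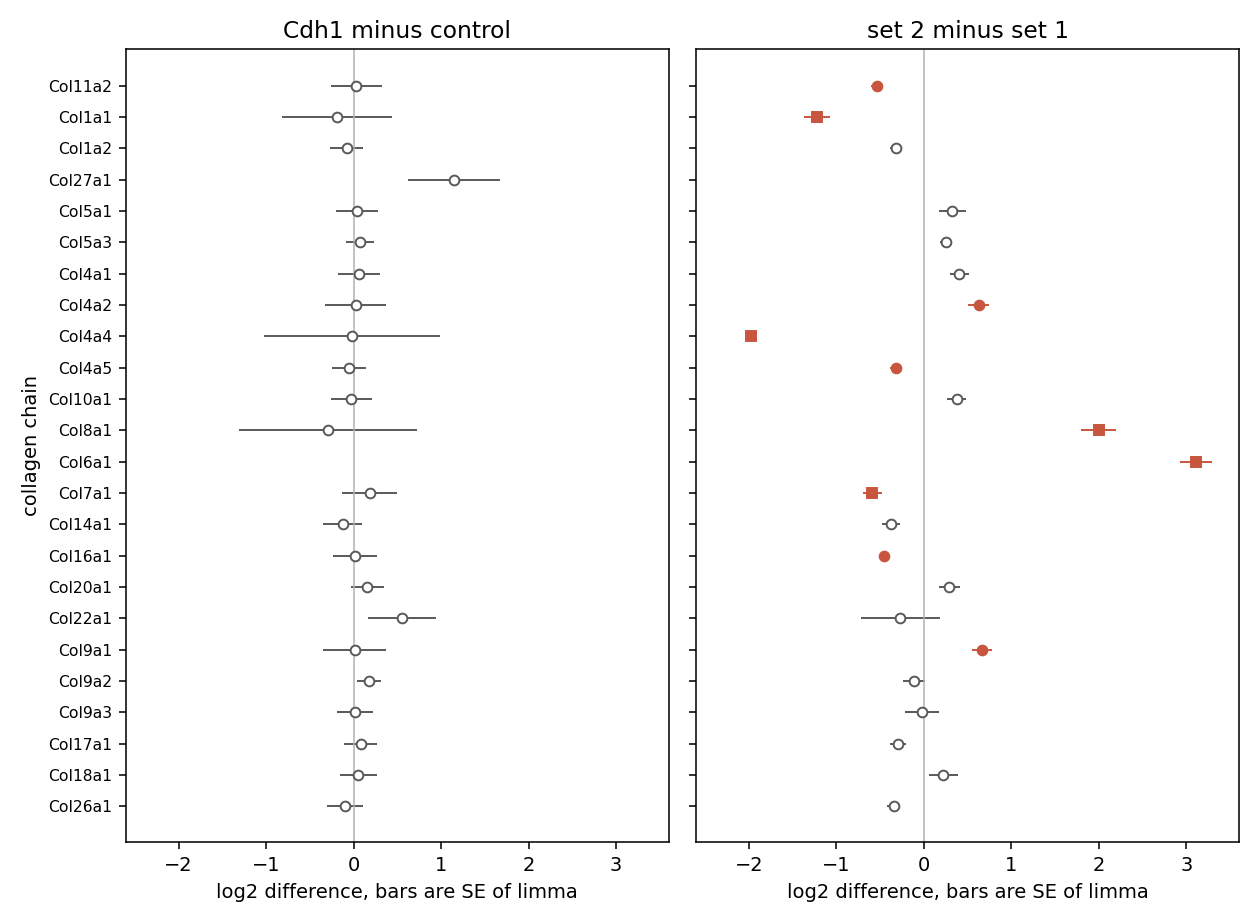
Log2 differences of collagen chains with bars of 1 standard error from limma, for Cdh1 minus control (left) and set 2 minus set 1 (right). Filled symbols passed an adjusted p of 0.05, squares did so also with the treatment group as a block, and a missing point was not tested. No chain was called for Cdh1 and 10 were called between sets; the point of Col6a1 is a fitted value against a set in which it was below background.

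Promoter sequences are shown for the chains that remained called between sets with the treatment group as a block, so that the regions ahead of genes that were higher and lower in set 2 can be read side by side. Col6a1 and Col8a1 were higher in set 2 and Col7a1 lower. Col6a1 entered the test through set 2 alone, so its direction was fixed, and the probes of Col7a1 and Col8a1 lie in the last rows of spots. Windows are the 250 bases before the transcription start, from RefSeq on GRCm38.p6, written 5′ to 3′ on the strand of the gene. The window of Col4a4 overlaps its neighbour Col4a3 and is not shown, and Col1a1 had no entry. Capitals mark matches, on either strand, to CCAAT (the CCAAT box), GGGCGG (the Sp1 motif) or TGACTCA (the AP-1 motif). The TATA box letters TATAAA and the E-box letters CACGTG were searched too and had no match in these windows.
Col6a1 (chr10:76726045-76726294, minus strand): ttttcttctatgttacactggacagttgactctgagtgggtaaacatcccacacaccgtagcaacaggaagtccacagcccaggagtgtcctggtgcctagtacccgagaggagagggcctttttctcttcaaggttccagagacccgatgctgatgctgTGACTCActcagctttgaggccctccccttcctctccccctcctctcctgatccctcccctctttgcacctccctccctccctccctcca
Col8a1 (chr16:57754738-57754987, minus strand): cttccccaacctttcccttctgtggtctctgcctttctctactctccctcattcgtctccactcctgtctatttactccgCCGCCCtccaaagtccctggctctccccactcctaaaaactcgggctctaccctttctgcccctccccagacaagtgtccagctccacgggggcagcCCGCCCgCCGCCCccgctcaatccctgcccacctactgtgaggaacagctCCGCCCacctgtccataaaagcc
Col7a1 (chr9:108953336-108953585, plus strand): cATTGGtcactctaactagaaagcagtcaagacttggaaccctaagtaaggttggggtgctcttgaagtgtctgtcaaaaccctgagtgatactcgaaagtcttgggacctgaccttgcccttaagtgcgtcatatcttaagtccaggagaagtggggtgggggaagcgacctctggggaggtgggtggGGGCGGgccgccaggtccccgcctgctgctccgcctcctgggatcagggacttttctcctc

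The share of G and C in the window was 56.0% for Col6a1, 60.8% for Col8a1 and 56.4% for Col7a1. The Col6a1 window held TGACTCA 90 to 84 bases before the start, which 4.46% of all 32851 windows of this length contained. The Col8a1 window held GGGCGG on the opposite strand 4 times, and the Col7a1 window held it 61 to 56 bases before the start, in its written orientation. This motif was in 32.7% of all windows. Col7a1 also had CCAAT on the opposite strand, 249 to 245 bases before the start, a motif in 33.8% of all windows. Of the 38 windows of collagen chains in the table, 22 held GGGCGG, 13 CCAAT, 5 TATAAA, 1 TGACTCA and 0 CACGTG. These matches describe letters in the windows and no binding was measured.

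Among the fibrillar collagens, collagen I was lower in set 2 in the chain Col1a1. Col1a1 had a level of -3.68 (control) and -3.69 (Cdh1) in set 1 and -4.72 (control) and -5.09 (Cdh1) in set 2. Both arrays of set 2 lay below both arrays of set 1, while the treatment groups overlapped. The mean was -3.68 ± 0.01 in set 1 and -4.91 ± 0.26 in set 2 (SD, n = 2 arrays), a difference of -1.22 (SE 0.14, adjusted p = 0.0216 in limma, 0.0463 with the block). Under the other settings the adjusted p ran from 0.00438 to 0.117, and with normexp, a background correction that adds an offset, and quantile normalization the difference was -0.39. The Cdh1 difference was -0.19 (SE 0.63).

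The 3 probes of Col1a1, 2 of them printed in 10 spots each, read lower in set 2. The other probe with 10 spots had -3.84 and -3.85 in set 1 and -5.03 and -5.08 in set 2, a difference of -1.21 (SE 0.05, adjusted p = 0.00667 in limma). The probe with 1 spot had -4.12 and -4.31 in set 1 and was not well above background in set 2. Its level in set 1 was at least 2.98-fold higher, a direction fixed by its entry into the test through set 1 alone. The adjusted p of 0.016 in limma belongs to its fitted difference and not to this bound. Over the spots of a probe on an array, which are technical repeats, the SD was between 0.14 and 0.32. No spot of either probe in set 2 reached the mean of its probe in set 1.

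**Figure D4:**
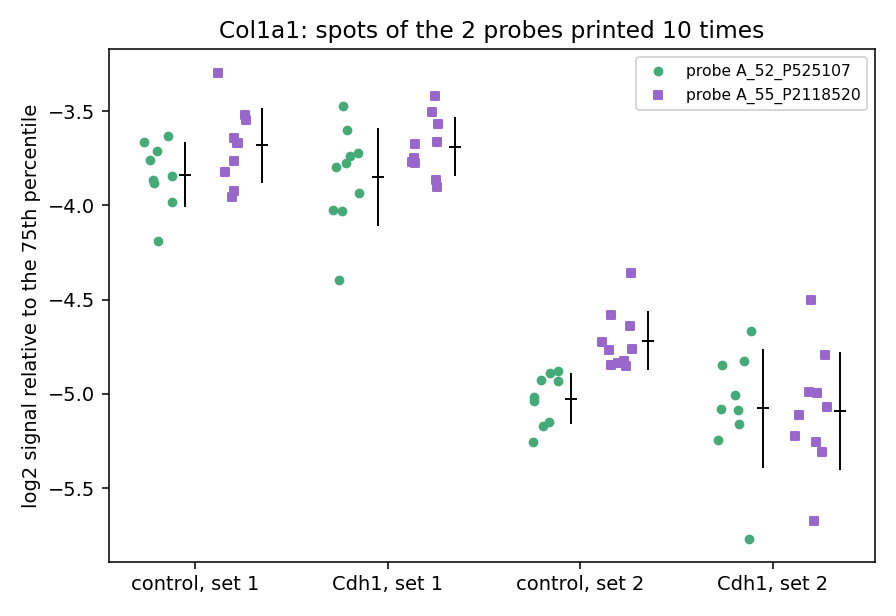
Log2 level relative to the 75th percentile of each spot of the 2 Col1a1 probes printed 10 times, by array; points are spots kept after outlier removal, and the tick with its bar is the mean ± SD over those spots. Control and Cdh1 arrays of set 1 have means from -3.85 to -3.68, and those of set 2 from -5.09 to -4.72.

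Col1a2, the other chain of collagen I, had 1.76 and 1.67 in set 1 and 1.43 and 1.36 in set 2 (control before Cdh1, as in all pairs that follow). Set 2 was again lower on both arrays, by a difference of -0.32 (SE 0.07) that missed the threshold (adjusted p = 0.0556 in limma). It passed when only probes detected on all 4 arrays were tested (adjusted p = 0.0463). The Cdh1 difference of Col1a2 was -0.08 (SE 0.19), with -0.10 in set 1 and -0.06 in set 2.

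Collagen V, which regulates the width of collagen I fibrils, was not called in either comparison. Col5a1 had -0.63 and -0.31 in set 1 and -0.02 and -0.27 in set 2. The sets did not overlap, with a difference of 0.32 (SE 0.16, adjusted p = 0.223 in limma). With Cdh1 it was higher in set 1 and lower in set 2, with a mean difference of 0.04 (SE 0.24). Col5a3 had 1.05 and 1.18 in set 1 and 1.36 and 1.37 in set 2. Its set difference was 0.25 (SE 0.07, adjusted p = 0.0926) and its Cdh1 difference 0.07 (SE 0.16). A dimmer probe of Col5a3, detected on 3 arrays, had a Cdh1 difference of -0.27 (SE 0.42) and a set difference of -0.08 (SE 0.44), signs opposite to those of the brighter probe.

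Col11a2, a chain of the cartilage collagen XI, was lower in set 2. Its level was -3.05 and -3.08 in set 1 and -3.66 and -3.55 in set 2. The difference was -0.54 (SE 0.07, adjusted p = 0.0225 in limma, 0.0572 with the block), and -0.27 with normexp and quantile normalization. The 2 probes of Col11a2 disagreed: the dimmer had -5.46 and -5.13 in set 1 and -5.51 and -5.18 in set 2, a set difference of -0.05 (SE 0.18, adjusted p = 0.862). This probe was higher with Cdh1 by 0.33 (SE 0.10) in each set, and the brighter by 0.03 (SE 0.29). Both Cdh1 differences had an adjusted p of 1.0.

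Col27a1, a fibrillar chain of cartilage, was the chain detected on both Cdh1 arrays and neither control array. Its level was -5.78 and -5.64 in set 1 and -6.63 and -4.47 in set 2. The gap lay almost wholly in set 2, where the Cdh1 minus control difference was 2.15, against 0.14 in set 1. On these arrays the mean Cdh1 level was at least 1.8-fold higher than the mean control level. The 95% confidence interval of the fitted difference in limma ran from -0.32 to 2.61 on the log2 scale, with an adjusted p of 1.0. Col27a1 entered the test through the Cdh1 arrays alone, so it had to be higher with Cdh1. The fibrillar chain Col11a1 was detected on 2 arrays, with -5.62 and -5.39 in set 1 and -5.29 and -5.65 in set 2, and was not tested.

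Col4a1 and Col4a2, the chains of the collagen IV network found in most basement membranes, had the same direction between sets. Col4a1 had -1.90 and -1.67 in set 1 and -1.33 and -1.44 in set 2. Col4a2 had -1.62 and -1.38 in set 1 and -0.78 and -0.97 in set 2. Both arrays of set 2 lay above both of set 1 for each chain. The difference of Col4a2 was 0.63 (SE 0.12, adjusted p = 0.0483 in limma, 0.095 with the block), from a mean of -1.50 ± 0.17 in set 1 to -0.88 ± 0.13 in set 2 (SD, n = 2 arrays). That of Col4a1 was 0.40 (SE 0.11) and was not called (adjusted p = 0.0823). The genes are neighbours, and in GRCm38.p6 their windows before the start overlap by 78 bases on opposite strands. With Cdh1 both were higher in set 1 and lower in set 2, with mean differences of 0.06 (SE 0.24) for Col4a1 and 0.03 (SE 0.35) for Col4a2.

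In the collagen IV network of kidney and eye, Col4a4 and the brighter probe of Col4a5 read lower in set 2. Col4a3, the other chain of this network, was detected on no array. Col4a4 had -3.78 and -3.82 in set 1 and -5.78 and -5.78 in set 2, where it was well above background on the control array but not on the Cdh1 array. The fitted difference was -1.98 (SE 0.05, adjusted p = 0.0062 in limma, 0.0329 with the block). It rests on 1 array of set 2 with a signal above background, Col4a4 entered the test through set 1, and with normexp and quantile normalization it was -0.57. Over the other settings the adjusted p was between 0.000463 and 0.0743. Col4a5 had -0.28 and -0.28 in set 1 and -0.56 and -0.65 in set 2. Its difference was -0.32 (SE 0.06, adjusted p = 0.0485 in limma, 0.0857 with the block), and it was not called with median centring (adjusted p = 0.1) or in the authors' deposited table (adjusted p = 0.0606). The 2 probes of Col4a5 disagreed: the dimmer had -2.35 and -2.39 in set 1 and -2.35 and -2.54 in set 2, a difference of -0.08 (SE 0.08, adjusted p = 0.557). The Cdh1 difference was -0.02 (SE 1.001) for Col4a4 and -0.05 (SE 0.19) for Col4a5.

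The short-chain network collagens included a chain that was higher in set 2. Col8a1, a chain of the hexagonal lattice under the corneal endothelium, had -4.06 and -4.60 in set 1 and -2.30 and -2.36 in set 2. The arrays of the sets were far apart, and the Cdh1 array was the lower of each pair. The mean was -4.33 ± 0.38 in set 1 and -2.33 ± 0.04 in set 2 (SD, n = 2 arrays), a difference of 1.996 (SE 0.20, adjusted p = 0.017 in limma, 0.0409 with the block), or 3.99-fold. With normexp and quantile normalization the difference was 0.91 on the log2 scale. The adjusted p was between 0.000118 and 0.103 over the other settings. Its Cdh1 difference was -0.30 (SE 1.02). Col10a1, the collagen of hypertrophic cartilage, had -3.31 and -3.14 in set 1 and -2.74 and -2.96 in set 2. Its set difference of 0.37 (SE 0.11) was not called (adjusted p = 0.101), and its Cdh1 difference was -0.02 (SE 0.23).

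Col6a1, a chain of the beaded filaments of collagen VI, was detected on both arrays of set 2 and neither of set 1. The level in set 2 was -4.82 and -5.06, and the probe read -7.84 and -8.26 in set 1, below background. Set 2 was at least 1.88-fold higher. The adjusted p (0.00836 in limma, 0.0329 with the block) belongs to the fitted difference of 3.11 and not to this bound. That fit uses the below-background readings of set 1. The adjusted p ran from 0.00165 to 0.0744 over the other settings. Of all 23462 genes, 101 (0.43%) were detected on both arrays of set 2 and neither of set 1. Because Col6a1 entered the test through set 2 alone, it had to differ in this direction. The other 5 collagen VI chains were on no array, so that none of the partners of Col6a1 could be followed.

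Col7a1, the chain of the anchoring fibrils that tie basement membrane to dermis, was lower in set 2. It had -1.39 and -1.24 in set 1 and -2.01 and -1.80 in set 2. The mean was -1.31 ± 0.11 in set 1 and -1.91 ± 0.15 in set 2 (SD, n = 2 arrays). The difference was -0.59 (SE 0.11, adjusted p = 0.0436 in limma, 0.047 with the block), a 1.51-fold lower level. It was not called in the authors' deposited table (adjusted p = 0.0627), and over the other settings the adjusted p was between 0.00242 and 0.186. Col7a1 was higher on the Cdh1 array in both sets, by 0.16 and 0.21, and the mean Cdh1 difference of 0.18 (SE 0.31) was not called.

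**Figure D5:**
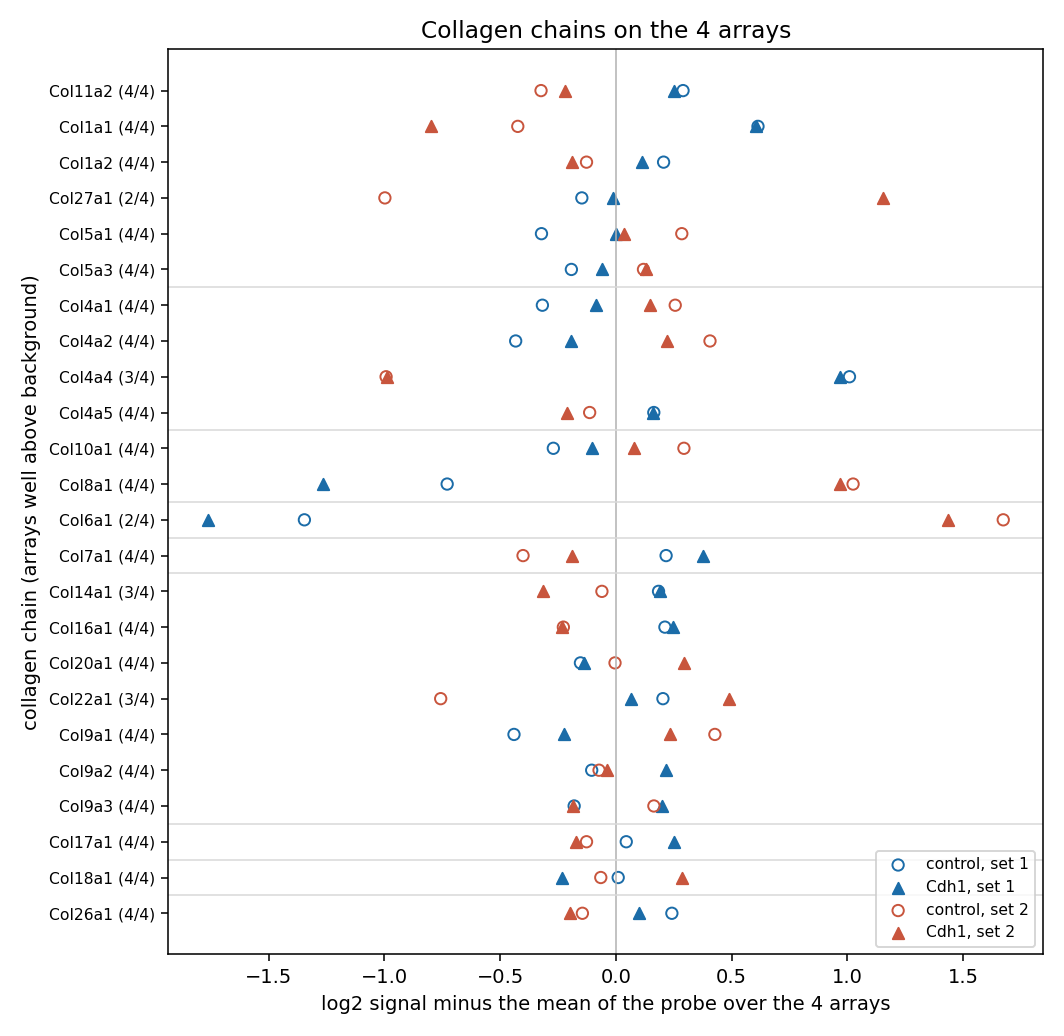
Log2 signal of each tested collagen chain on the 4 arrays minus the mean of its probe over the arrays (horizontal axis); circles are control and triangles Cdh1, blue is set 1 and red set 2, and the number after a name gives the arrays on which the chain was well above background. Chains are grouped by class. For 16 of the 19 chains detected on all 4 arrays the colours do not overlap, against 73.0% of all genes so detected. Col1a1 and Col8a1 are among them, and the colours of Col4a4 and Col6a1 do not overlap either. Within set 1 the Cdh1 minus control gap was -0.54 for Col8a1. That of Col6a1, at -0.42, lies between 2 signals that were not well above background.

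Collagen IX decorates the surface of cartilage fibrils, and its chains did not share a direction between sets. Col9a1 had -2.48 and -2.26 in set 1 and -1.61 and -1.81 in set 2. It was higher in set 2 by 0.66 (SE 0.12, adjusted p = 0.0414 in limma, 0.086 with the block), or 0.41 with normexp and quantile normalization, and its Cdh1 difference was 0.01 (SE 0.36). A dimmer probe of Col9a1 was detected on the control array of set 1 alone and was not tested. That probe read -5.37 and -5.98 in set 1 and -5.98 and -5.76 in set 2. Col9a2 had -1.61 and -1.29 in set 1 and -1.58 and -1.54 in set 2. Its sets overlapped, with a difference of -0.11 (SE 0.13, adjusted p = 0.565). It was higher on the Cdh1 array in both sets, by 0.32 and 0.03, a mean of 0.18 (SE 0.14). Col9a3 had -3.90 and -3.52 in set 1 and -3.56 and -3.91 in set 2. The order of control and Cdh1 was opposite in the sets, and neither the set difference of -0.02 (SE 0.19) nor the Cdh1 difference of 0.02 (SE 0.21) was called. Its dimmer probe, detected on 3 arrays, had a set difference of 0.59 (SE 0.55) and a Cdh1 difference of -0.68 (SE 0.52).

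Col16a1, a fibril-associated collagen of skin and cartilage, was lower in set 2. Its level was 3.067 and 3.102 in set 1 and 2.63 and 2.62 in set 2. The means were 3.08 ± 0.02 and 2.63 ± 0.00 (SD, n = 2 arrays), and control and Cdh1 differed by 0.03 in set 1 and by less in set 2. The difference of -0.46 (SE 0.05) was called without the block (adjusted p = 0.0209 in limma) and not with it (adjusted p = 0.0563). A dimmer probe had a difference of -0.49 (SE 0.26) that was not called (adjusted p = 0.252). Col20a1 had -0.94 and -0.93 in set 1 and -0.79 and -0.49 in set 2. Its set difference of 0.29 (SE 0.12) was not called (adjusted p = 0.174), nor was its Cdh1 difference of 0.16 (SE 0.19).

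The other fibril-associated chains were detected on 1 to 3 arrays. Col14a1, which binds the surface of collagen I fibrils, was detected on 3 arrays, with -5.08 and -5.07 in set 1 and -5.32 and -5.58 in set 2. Col22a1, a collagen of the muscle-tendon junction, was also on 3 arrays, with -5.32 and -5.46 in set 1 and -6.28 and -5.04 in set 2. Neither was called between sets (adjusted p = 0.0927 and 0.699 in limma). Col12a1 was detected on the Cdh1 array of set 1 alone, where it read -4.93, and Col19a1 on the control array of set 2 alone, where it read -5.31. Neither entered a test. The probe of Col19a1 lies in the last rows of spots.

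The remaining classes had few detected chains and no calls. Col17a1, a transmembrane collagen of hemidesmosomes, had -4.68 and -4.47 in set 1 and -4.85 and -4.90 in set 2. Its set difference was -0.30 (SE 0.09, adjusted p = 0.109 in limma) and its Cdh1 difference 0.08 (SE 0.19). A dimmer probe of Col17a1 was well above background on no array. Col23a1, another transmembrane collagen, was detected on the control array of set 1 alone, at -5.41. The multiplexin Col18a1, the source of the fragment endostatin, had -4.92 and -5.17 in set 1 and -5.00 and -4.65 in set 2. Its sets overlapped, with a difference of 0.22 (SE 0.16, adjusted p = 0.382), and its Cdh1 difference was 0.05 (SE 0.21). Col15a1, the other multiplexin, was detected on 2 arrays, with -5.60 on the control array of set 1 and -3.24 on the Cdh1 array of set 2, and its probe lies in the last rows of spots. Col26a1 had -4.44 and -4.58 in set 1 and -4.82 and -4.88 in set 2. It was lower on both arrays of set 2, by -0.34 (SE 0.07), and was not called (adjusted p = 0.06), with a Cdh1 difference of -0.10 (SE 0.20). These values are from the brightest probe of Col26a1, and its other probes were well above background on no array.

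Genes that fold, export, trim, cross-link and bind collagen were followed in 5 lists. No gene of these lists was called for Cdh1 against control, where 0.0% of all genes were called. Between sets, the lists held genes called in both directions, and 19.0% of all genes were called.

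Of 18 genes for folding and modification, 16 were tested between sets, with 3 called higher in set 2 and 1 lower and a median difference of -0.07. P3h2, a prolyl 3-hydroxylase, had -2.71 and -2.70 in set 1 and -1.64 and -1.79 in set 2, a difference of 0.99 (SE 0.07, adjusted p = 0.0117 in limma). Fkbp10, a collagen chaperone of the endoplasmic reticulum, had -1.14 and -1.18 in set 1 and -2.09 and -2.09 in set 2, a difference of -0.93 (SE 0.05, adjusted p = 0.00832). P3h4, a partner of the lysyl hydroxylases, was detected in set 2 alone and was at least 1.69-fold higher there (adjusted p = 0.0393, and 0.0692 with the block). It entered the test through set 2 alone, so its direction was fixed. The other gene called higher, the prolyl 3-hydroxylase P3h3 (0.38, SE 0.07, adjusted p = 0.0466), was not called with the block (0.0723). The largest Cdh1 difference of the same sign in both sets was that of the prolyl 4-hydroxylase P4ha2, at -0.14 (SE 0.14).

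Of 6 secretion genes, all tested, Sec24d, a coat protein of the carriers that leave the endoplasmic reticulum, was the 1 gene called between sets. It had -0.96 and -0.96 in set 1 and -1.62 and -1.57 in set 2, a difference of -0.64 (SE 0.05, adjusted p = 0.0136 in limma). The median of the list was -0.14. Its largest Cdh1 difference of the same sign in both sets was -0.05 (SE 0.11), for Mia3, which loads collagen into carriers.

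Of 14 genes for procollagen cleavage and cross-linking, 7 were tested between sets, with 3 called higher in set 2, 1 lower and a median of 0.41. Pcolce2, an enhancer of procollagen cleavage, had -3.85 and -3.69 in set 1 and -5.42 and -6.19 in set 2, where the Cdh1 array was not well above background. The fitted difference was -2.04 (SE 0.29, adjusted p = 0.0292 in limma, 0.058 with the block), and Pcolce2 entered the test through set 1. Its relative Pcolce had 4.56 and 4.63 in set 1 and 5.26 and 5.19 in set 2, a difference of 0.63 (SE 0.06, adjusted p = 0.0168, 0.0508 with the block). The cross-linking enzyme Loxl3 had -0.38 and -0.33 in set 1 and 0.29 and 0.26 in set 2, also a difference of 0.63 (SE 0.06, adjusted p = 0.014). The third gene called higher, the procollagen protease Bmp1, was called without the block (adjusted p = 0.0324) and not with it (0.0741). For Cdh1, the largest difference of the same sign in both sets was -0.12 (SE 0.23), for the protease Adamts14. Lox, Loxl1 and Adamts2 were well above background on no array.

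Of 10 collagen receptors, 6 were tested and none was called between sets, where limma's lowest adjusted p was 0.209 and 0 genes had an unadjusted p under 0.05, against 40.4% of all genes tested. The largest Cdh1 difference of the same sign in both sets was that of Gp6, the platelet collagen receptor, at -0.18 (SE 0.13). Of 16 partners of collagen IV in the basement membrane, 12 were tested, with 1 called higher in set 2, 2 lower and a median of -0.20. Hspg2, the proteoglycan perlecan, had 0.92 and 1.14 in set 1 and 2.16 and 2.07 in set 2, a difference of 1.08 (SE 0.10, adjusted p = 0.0149). The laminin chain Lamb1 had -0.40 and -0.36 in set 1 and -2.05 and -1.96 in set 2, a difference of -1.62 (SE 0.06, adjusted p = 0.00648). Lamc3, another laminin chain, was detected in set 1 alone, at -3.76 and -3.63, and was at least 4.21-fold higher there (adjusted p = 0.0119). It entered the test through set 1 alone, so its direction was fixed. For Cdh1, the laminin chain Lama2 was well above background on the control arrays alone. Its mean level was at least 1.15-fold higher there, a direction fixed by its entry through those arrays. The 95% confidence interval of Cdh1 minus control in limma ran from -0.62 to 0.21 on the log2 scale, with an adjusted p of 1.0.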

How the data were processed

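Per the labels' protocols, Cy3-labelled cRNA was made from 100 ng of total RNA, and per the file headers the arrays were read with Agilent Feature Extraction 12.0.3.1, on 1 slide in 1 scan. The deposited scanner files give each spot's processed intensity on a linear scale, after background subtraction and detrending within the array, with flags and no scaling across arrays. A value table that the authors deposited holds the same intensity, each column times 1 factor (0.8735 to 0.9304), with deviations of at most 7.2e-10 on the log2 scale.

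From the deposited intensity, log2 values minus the array's 75th percentile were computed, outlier spots left out and spots of a probe averaged. Probes were named through RefSeq accessions (GRCm38.p6; 59.65% matched a symbol), and the array design names mm9, so no coordinates of probes were used. A probe needed the flag on over a share of 0.5 of its spots to count as well above background. Probes so on both arrays of at least 1 of the groups compared were tested with limma 3.58.1 (lmFit, eBayes) in R 4.3.3, without a block, with Benjamini-Hochberg adjustment over all of them and a threshold of 0.05. A bound ("at least") sets the bright group's mean against the higher of the dim probe's signal and the lowest signal well above background on each dim array. The fits were run on simulated data with planted differences and the spread seen within sets, with no set difference added for Cdh1. Only the mean fitted difference was checked against the planted one, so this does not give error rates for these data. Python 3.11.15, pandas 2.3.3, numpy 2.4.6 and matplotlib 3.10.9 were used.

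The design text gives the sets as pairs. Deviations from the group means correlated at 0.744 in set 1 and 0.744 in set 2 over 31155 probes, and the lowest correlation within a set (0.9976) was above the highest across sets (0.9922). Named were all chains detected on all 4 arrays, all called chains, those detected in 1 group or set alone and, in each partner list, up to 3 called genes with the largest difference and the largest Cdh1 difference of 1 sign; Bmp1 and P3h3 were named in addition, after their values were seen. Chains detected on some arrays were also named after their values were seen. The members and lists were chosen with earlier results of these data known. The alternatives were other normalizations, filters, flags, probe rules, the block, another variance prior, the authors' table, dropping the last 24 rows of spots and dropping each array. The normexp alternative used the median spot signal, since a mean signal was not used here. The number of arrays limits the precision. 1 marker result is not reported here.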

Additional observations from a re-analysis of the deposited data

Results flagged for a closer look

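For 3 of the 19 chains detected on all 4 arrays (15.8%), the Cdh1 minus control difference had opposite signs in the 2 sets and a size of at least 0.2 on the log2 scale in each. Over all genes detected on all 4 arrays, 328 of 13999 (2.34%) did so. Col18a1, the endostatin precursor, was lower with Cdh1 in set 1 (-0.2425) and higher in set 2 (0.352). Col5a1, of collagen V, was higher in set 1 (0.3209) and lower in set 2 (-0.2485). Col9a3, of collagen IX, was higher in set 1 (0.3808) and lower in set 2 (-0.3495). With 1 array of each group in a set, the difference between the sets was not tested.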

How the results depend on the processing

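For Cdh1 against control, 0 collagen chains and 0 probes were called under every alternative run, so the set as a replicate block changed no call there (lowest adjusted p of a chain 0.707 in limma). For set 2 against set 1, 5095 probes were called: 2165 with the treatment group as a block, 9032 with normexp and quantile normalization, 11194 with a trended and robust prior, 0 with no filter on dim probes and between 0 and 706 with 1 array left out. The called chains, 10, were 5 with the treatment block, 0 with no filter and between 0 and 2 with 1 array left out. Quantile normalization kept the same 10 chains, normexp with quantile normalization added Col1a2, Col4a1 and Col5a3, and the robust prior added Col20a1 to these. With normexp and its offset of 50, differences of dim chains were smaller: -0.39 for Col1a1, -0.57 for Col4a4, 0.44 for Col6a1 and 0.91 for Col8a1. The chains detected on all 4 arrays, 19, were 28 by the flag for a positive and significant signal.

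With 1 array left out, the median Cdh1 difference over the chains ran from 0.0547 to 0.129 and the median set difference from -0.20 to 0.20. Leaving out an array leaves the sets unequal between the treatment groups, and a group with 1 array was assumed to vary like the other. The Cdh1 difference of uncalled chains then changed sign, from -0.31 to 0.26 for Col10a1, -0.27 to 0.34 for Col11a2, -0.38 to 0.13 for Col14a1, -0.22 to 0.25 for Col16a1, -0.13 to 0.29 for Col17a1, -0.20 to 0.31 for Col18a1, -0.89 to 0.51 for Col1a1, -0.25 to 0.0869 for Col1a2, -0.0605 to 0.37 for Col20a1, -0.29 to 0.10 for Col26a1, -0.23 to 0.35 for Col4a1, -0.39 to 0.45 for Col4a2, -1.02 to 0.98 for Col4a4, -0.24 to 0.13 for Col4a5, -0.27 to 0.34 for Col5a1, -0.0832 to 0.23 for Col5a3, -0.13 to 0.49 for Col7a1, -1.42 to 0.82 for Col8a1, -0.42 to 0.45 for Col9a1 and -0.18 to 0.21 for Col9a3. The set difference did so from -0.89 to 0.35 for Col22a1, -0.27 to 0.049 for Col9a2 and -0.21 to 0.17 for Col9a3.

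Cdh1 differences near 0 also changed sign with normexp and quantile normalization (Col11a2 -0.0202, Col18a1 -0.0134, Col4a2 -0.0276, Col9a1 -0.0539), with quantile normalization (Col11a2 -0.0197, Col9a1 -0.0168, Col9a3 -0.0249) and with median centring (Col11a2 -0.0113, Col16a1 -0.0294, Col4a2 -0.0182, Col5a1 -0.0079, Col9a1 -0.032, Col9a3 -0.0284). They did so with the authors' deposited table (Col4a4 0.0073) and the mean of all probes (Col5a3 -0.1011, Col9a3 -0.3313). The set difference of Col9a3 became 0.0459 with normexp, 0.0265 with the authors' table and 0.2858 with the mean of all probes. The cause was not tested. For dim chains, signal close to background limits what can be seen.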
